A study of Homo sapiens
Mus musculus with 5 samples.

Results

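Reactive astrocyte genes of the mouse host were followed in tumors grown from human lung cancer cells. The set held 10 mouse genes, Gfap, Vim, Nes, Aqp4, Serpina3n, Aspg, Steap4, Cd44, S1pr3 and Hspb1, each matched by its symbol in a table of 24628 mouse genes, and all 10 were found and passed the filter on low values. The tumors were 3 brain tumors and 2 lung tumors of H2030-BrM3, a line derived from a human lung adenocarcinoma and selected for growth in the brain, carried in athymic nu/nu mice, hosts without a thymus and so short of T cells. The lung tumors were orthotopic and were seeded through the trachea, per the labels, and no treatment or genotype separates the groups. No library of tumor-free brain was analysed here, so a level in a brain tumor has no healthy astrocyte to be set against. Routes of seeding for the brain tumors are not in the labels. The labels do not say whether the tumors came from separate animals, so a p-value here speaks of the spread among 5 libraries, which may be partly technical. Levels are RPKM, reads scaled to the length of the gene and to the reads of its species in the library. A mouse level is a share of the reads given to mouse genes, and of the host's RNA if no human reads were among them. Whether human reads were among them was not tested.

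Astrocytes are glial cells that clear glutamate and potassium, move water and meet blood vessels with their end feet. After injury, inflammation or invasion by a tumor they become reactive: they enlarge, build more intermediate filaments and change what they secrete and display. Gfap is the filament protein used most often to stain them, and signalling by cytokines of the interleukin-6 family through Stat3 is a main route into the state. Several genes of the set are also used by other cells, among them Vim, Nes and Cd44 in vessels, connective tissue or leukocytes.

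The brain tumor libraries 1, 2 and 3 held 2710983, 4915553 and 8636094 mouse reads, while lung tumor 1 held 231156 and lung tumor 2 held 5295159. These are whole reads recovered from the RPKM, known for each gene up to a common divisor, so they are lower bounds and intervals made from them may be too wide. Human reads made up 75.6%, 56.5% and 22.1% of the brain tumor libraries and 96.6% and 41.4% of the lung tumor libraries. Lung tumor 1 therefore rests on few mouse reads, and results that rest on it are also given without it. Tissue markers matched the labels: 14 of 14 neuron markers were called higher in the brain tumors, and 7 of 11 tested lung epithelium markers were called lower. The surfactant gene Sftpc had 3.59, 8.67 and 2.54 RPKM in the brain tumors, against 152 and 14030 RPKM in lung tumors 1 and 2, and was thus far lower in lung tumor 1 than in lung tumor 2.

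In the comparison of brain with lung tumors, 3 of the 10 genes rose, Gfap, Aqp4 and Aspg, and 2 fell, Steap4 and Cd44, by limma at an adjusted p under 0.05. Of all 15431 tested mouse genes 14.3% were called higher and 8.12% lower. The other 5 genes, Vim, Nes, Serpina3n, S1pr3 and Hspb1, did not pass. Fold changes are on the log2(RPKM + 1) scale. The median log2 fold change of the 10 genes was -1.27, against 0.08 over all tested genes. In 3 genes every brain tumor lay above both lung tumors and in 6 every brain tumor lay below both, where 30.0% and 26.2% of all tested genes did so. Without lung tumor 1 the calls were 4 higher and 3 lower, with Serpina3n and Nes added, against 17.0% and 14.0% of the genes tested there. Without lung tumor 2 they were 3 higher and 5 lower, with Vim, Nes and Hspb1 added, against 35.0% and 20.0%. With 1 lung tumor left, that tumor is assumed to vary as the brain tumors do. In bulk tissue a difference in the number of cells of a type and a difference in RNA per cell cannot be told apart.

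**Figure D1:**
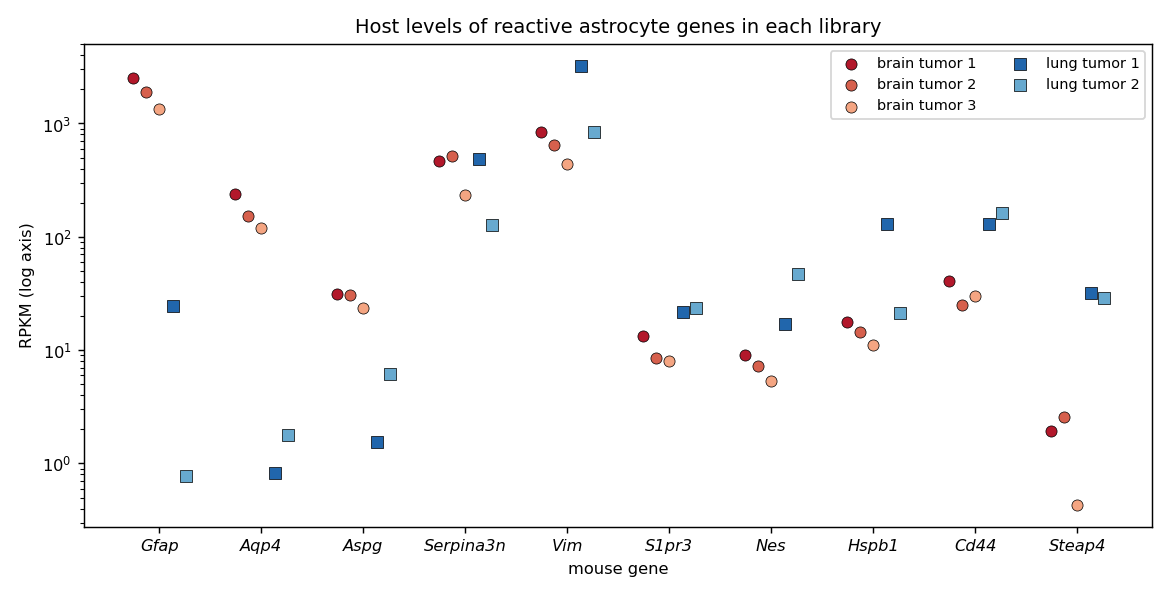
Level of each of the 10 mouse genes in each library, as RPKM on a log axis, with circles for the 3 brain tumors and squares for the 2 lung tumors. Gfap, Aqp4 and Aspg are higher in all 3 brain tumors, Serpina3n overlaps between the groups, and the other 6 genes are lower in all 3 brain tumors than in both lung tumors.

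The intermediate filament genes split between Gfap, the usual stain for astrocytes, and the widely used Vim and Nes. Gfap had 2521, 1889 and 1343 RPKM in brain tumors 1, 2 and 3, against 24.3 and 0.782 RPKM in lung tumors 1 and 2. It was thus far above both lung tumors in every brain tumor, averaging 1917 ± 589.6 RPKM there (SD, n = 3). In brain tumors 1, 2 and 3 it ranked 17th, 22nd and 42nd by RPKM among all mouse genes. Its log2 fold change was 8.11 (limma adjusted p = 0.00548, SE 1.08, n = 3 and n = 2). The lung values rested on 15 reads in lung tumor 1 and 11 in lung tumor 2, against 18185 to 30798 reads in the brain tumors. The log2 fold change was 10.03 without lung tumor 1 and 6.20 without lung tumor 2, and the call held in both.

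Vim, the filament gene of mesenchymal cells that reactive astrocytes also use, had 837, 639 and 438 RPKM in the brain tumors, against 3219 and 839.7 RPKM in the lung tumors. The highest brain tumor lay just below lung tumor 2, and lung tumor 1 stood far above all the others. Its log2 fold change of -1.41 (limma adjusted p = 0.172, SE 0.66) did not pass, and was -0.45 without lung tumor 1 and -2.38 without lung tumor 2, where it passed (limma adjusted p = 0.00385). Nes, the filament gene of neural progenitors that is also found in growing vessels, had 9.01, 7.28 and 5.29 RPKM in the brain tumors, against 17.0 and 47.0 RPKM in the lung tumors. All 3 brain tumors were below both lung tumors, but the log2 fold change of -1.87 (limma adjusted p = 0.0551, SE 0.53) did not pass. Without lung tumor 1 it was -2.57 and passed (limma adjusted p = 0.00478). It passed without lung tumor 2 as well, at -1.16 (limma adjusted p = 0.0490), and with voom on recovered reads, at -2.32 (adjusted p = 0.0118).

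Aqp4, the water channel of astrocyte end feet, had 237, 152 and 118 RPKM in the brain tumors, against 0.829 and 1.78 RPKM in the lung tumors. All 3 brain tumors were far above both lung tumors, and its log2 fold change was 6.18 (limma adjusted p = 0.00115, SE 0.42). The lung values came from 1 read in lung tumor 1 and 49 reads in lung tumor 2. Aspg, an asparaginase gene induced in reactive astrocytes, had 31.0, 30.8 and 23.4 RPKM in the brain tumors, against 1.54 and 6.16 RPKM in the lung tumors. All 3 brain tumors were above both lung tumors, with a log2 fold change of 2.77 (limma adjusted p = 0.0169, SE 0.53). The lung tumor 1 value was 1 read, and the log2 fold change was 2.03 without that library and 3.52 without lung tumor 2, with the call held in both. The Aspg call was lost without any single brain tumor (limma adjusted p = 0.0796, 0.0894 and 0.0722 without brain tumors 1, 2 and 3), at log2 fold changes of 2.71, 2.71 and 2.90.

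Serpina3n, which encodes a secreted inhibitor of serine proteases, had 463, 516 and 232 RPKM in the brain tumors, against 488 and 127 RPKM in the lung tumors. The groups overlapped, since lung tumor 1 lay within the range of the brain tumors. Its log2 fold change was 0.61 (limma adjusted p = 0.539, SE 0.67). It turned to -0.35 without lung tumor 2 (limma adjusted p = 0.542), and was 1.58 without lung tumor 1, where it passed (limma adjusted p = 0.0482). Serpina3n belongs to a family of closely related mouse genes, so the split of its reads from those of its relatives is uncertain.

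Steap4, a metal reductase gene induced by inflammatory signals, had 1.94, 2.59 and 0.431 RPKM in the brain tumors, against 32.1 and 28.9 RPKM in the lung tumors. It was the lowest gene of the set in all 3 brain tumors, on 17, 41 and 12 reads, and both lung tumors lay far above them. The log2 fold change was -3.67 (limma adjusted p = 0.00688, SE 0.52). Cd44, the hyaluronan receptor that reactive astrocytes, leukocytes and connective tissue cells display, had 40.8, 25.2 and 29.9 RPKM in the brain tumors, against 129.8 and 161 RPKM in the lung tumors. Both lung tumors were above all 3 brain tumors, with a log2 fold change of -2.17 (limma adjusted p = 0.00849, SE 0.33). Without brain tumor 2 or 3 the Cd44 call was lost (limma adjusted p = 0.0549 and 0.0508), at log2 fold changes of -2.02 and -2.14.

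S1pr3, a receptor for sphingosine 1-phosphate, had 13.4, 8.48 and 8.09 RPKM in the brain tumors, against 21.6 and 23.4 RPKM in the lung tumors. The groups did not overlap and the 2 lung values lay close together. The log2 fold change of -1.13 (limma adjusted p = 0.0838, SE 0.38) did not pass, and with voom on recovered reads it was -1.28 and passed (adjusted p = 0.0395). Voom called 3 genes of the set higher and 4 lower, against 13.8% and 13.6% of all tested genes. Hspb1, a small heat shock protein that protects the cytoskeleton, had 17.7, 14.3 and 11.01 RPKM in the brain tumors, against 129 and 21.2 RPKM in the lung tumors. Lung tumor 2 was only a little above the brain tumors, and lung tumor 1 far above them on 28 reads. Its log2 fold change was -1.83 (limma adjusted p = 0.134, SE 0.76), -0.55 without lung tumor 1 and -3.10 without lung tumor 2, where it passed (limma adjusted p = 0.000996).

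**Figure D2:**
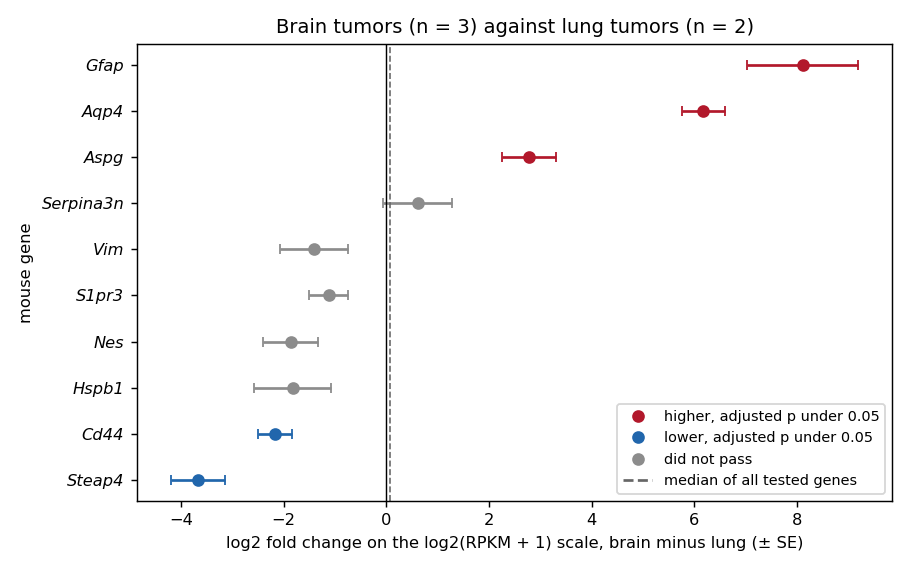
Log2 fold change of each of the 10 mouse genes, brain tumors (n = 3) minus lung tumors (n = 2), with bars for the SE of the limma fit; red and blue points passed at an adjusted p under 0.05, grey points did not, and the dashed line is the median of all tested genes (0.08). Gfap, Aqp4 and Aspg lie to the right, and Cd44 and Steap4 to the left.

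Markers of several cell types other than astrocytes differed between the groups in the same libraries. Of all tested genes 14.3% were called higher and 8.12% lower. None of the 10 fibroblast markers was called higher and 6 fell, and their summed level was 245 to 1033 RPKM in the brain tumors, against 17583 RPKM in lung tumor 1 and 11491 RPKM in lung tumor 2. Pericyte and smooth muscle markers summed to 156 to 317 RPKM in the brain tumors, against 2053 and 789 RPKM in lung tumors 1 and 2, and 5 of 10 fell. Macrophage and monocyte markers summed to 69.4 to 509 RPKM in the brain tumors, against 7061 and 4941 RPKM in lung tumors 1 and 2, and 5 of 10 fell. Endothelial markers summed to 206 to 423 RPKM in the brain tumors, against 487 and 2307 RPKM in lung tumors 1 and 2, and 2 of 10 fell. Without lung tumor 1 the median log2 fold changes were -2.95 for endothelial, -3.33 for fibroblast, -2.35 for pericyte and smooth muscle and -2.07 for macrophage and monocyte markers. No gene of these 4 lists was at 0 in any library. Microglia markers, with 1 of 10 higher and 1 lower, stood near the shares of all tested genes. They summed to 197 to 703 RPKM in the brain tumors, against 554 and 301 RPKM in lung tumors 1 and 2, so the groups overlapped. Oligodendrocyte markers rose in 10 of 12, neural stem and progenitor markers in 7 of 10, and ependymal and choroid plexus markers in 1 of 10, with 2 lower. Without lung tumor 1 the median log2 fold changes were 5.32 for oligodendrocyte, 2.90 for neural stem and progenitor and 0.92 for microglia markers. That of ependymal and choroid plexus markers was -1.83, against -0.09 over all genes tested there. The part of all these cell types in the levels of Vim, Nes, Cd44, Steap4, S1pr3 and Hspb1 was not tested.

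Neural markers were low but present in the lung tumors. The median neuron marker stood at 1.31% of its brain tumor mean in lung tumor 1 and at 0.2995% in lung tumor 2, and the median oligodendrocyte marker at 1.44% and 0.266%. The median homeostatic astrocyte gene stood higher, at 3.89% and 5.77%. Gfap stood at 1.27% and 0.0408% and Aqp4 at 0.490% and 1.05% in the same 2 libraries. In lung tumor 1 Gfap was thus near the level of the neuron and oligodendrocyte markers relative to brain, while Rbfox3, Nefm and Gad2 among the neuron markers, Mag, Ermn and Olig2 among the oligodendrocyte markers and S100b, Ntsr2, Mlc1 and Slc7a10 among the astrocyte genes were listed at 0 there. The source of these reads was not tested.

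The human counterparts of 3 genes were abundant in the human table, which reads the cancer cells. VIM had 710.2, 1009 and 710.5 RPKM in the brain tumors, against 743 and 572 RPKM in the lung tumors, per human reads. CD44 had 111, 197.5 and 72.0 RPKM in the brain tumors, against 164 and 296 RPKM in the lung tumors. HSPB1 had 181, 171 and 92.8 RPKM in the brain tumors, against 615 and 220.1 RPKM in the lung tumors. Human NES, ASPG, STEAP4 and S1PR3 were at or under 1.59 RPKM in every library. GFAP was listed at 0 in 4 libraries and at 2.37 RPKM in brain tumor 2, and SERPINA3 was listed at 0 in 4 libraries and at 0.527 RPKM in lung tumor 1. AQP4 was not analysed here.

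Read by read, the mouse share of these genes was smallest in lung tumor 1, where mouse reads were 3.41% of the whole library. Mouse reads were 58.6% of lung tumor 2 and 24.4%, 43.5% and 77.9% of brain tumors 1, 2 and 3. Of the Hspb1 and HSPB1 reads, the mouse gene held 45, 66 and 89 reads beside 1424, 1019 and 211 human reads in the brain tumors, against 28 mouse beside 3738 human reads in lung tumor 1 and 105 mouse beside 768 human reads in lung tumor 2. Mouse Hspb1 thus made up 0.743% of both in lung tumor 1. For Vim the mouse gene held 32.7%, 38.4% and 73.7% of the reads of both species in the brain tumors, against 16.5% and 72.7% in the lung tumors. For Cd44 it held 24.6%, 21.4% and 80.3% in the brain tumors, against 7.24% and 68.0% in the lung tumors. Transfer of reads between the species was not tested.

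**Figure D3:**
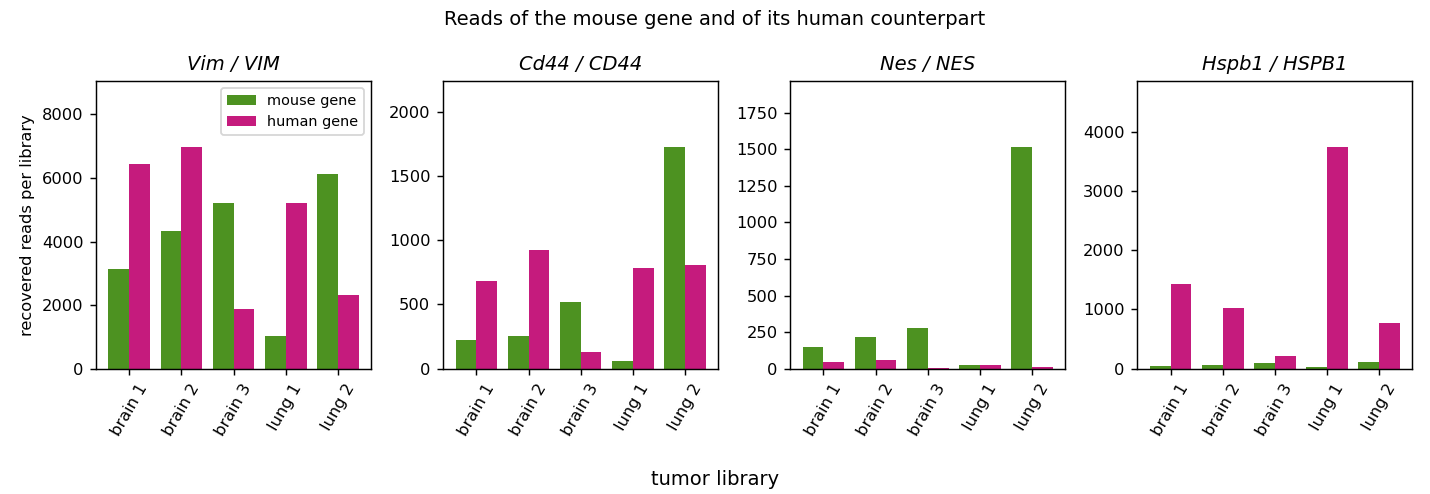
Recovered reads of 4 mouse genes (green) and of their human counterparts (pink) in each library, brain tumors left of lung tumors, each panel on its own linear axis from 0. Human reads outnumber mouse reads for Hspb1 in all 5 libraries, for Vim and Cd44 in brain tumors 1 and 2 and lung tumor 1, and for Nes in none.

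Within the brain tumors the libraries were read in the order of their share of human reads, 75.6% in brain tumor 1, 56.5% in brain tumor 2 and 22.1% in brain tumor 3. There is 1 library at each step, so the order has no replicate and no test. Levels were lower at each step, as the share of human reads was, in 7 of the 10 genes, Gfap, Vim, Nes, Aspg, S1pr3, Hspb1 and Aqp4, where 28.7% of all tested genes did so. Some of these steps were small: Aspg had 31.0 and 30.8 RPKM in brain tumors 1 and 2. S1pr3 had 8.48 and 8.09 RPKM in brain tumors 2 and 3, and Hspb1 rested on 45, 66 and 89 reads. Serpina3n and Steap4 were highest in brain tumor 2, and Cd44 was lowest there. Macrophage and monocyte markers were lower at each step in 10 of 10, and microglia markers in 8 of 10. Endothelial markers were so in 9 of 10, as were pericyte and smooth muscle markers. Counts were smaller for fibroblast (5 of 10), oligodendrocyte (3 of 12) and neuron markers (0 of 14). In brain tumor 3 all 10 genes of the set were below brain tumor 1, where 59.4% of all tested genes were. In 8 of the 10 this was by 1.5-fold or more, where 29.1% of all tested genes were lower and 12.4% higher by that fold. The exceptions were Aspg and Cd44, at 0.756 and 0.733 of their level in brain tumor 1. Every tested marker of microglia, macrophages and monocytes, endothelium, pericytes and smooth muscle, fibroblasts and oligodendrocytes was below brain tumor 1 as well. Of neuron markers 3 of 14 were.

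Gfap in brain tumor 3 was at 0.533 of its level in brain tumor 1 (95% interval 0.523 to 0.542, from an exact binomial interval on the reads, covering counting error only). Aqp4 was at 0.499 (0.478 to 0.521), Vim at 0.523 (0.5005 to 0.547) and Serpina3n at 0.501 (0.478 to 0.527) of their levels in brain tumor 1. These 4 abundant genes therefore stood at much the same fraction. Nes was at 0.587 (0.479 to 0.721), S1pr3 at 0.603 (0.498 to 0.731) and Hspb1 at 0.622 (0.430 to 0.911), with wider intervals on fewer reads. Steap4 was at 0.222 (0.0967 to 0.493), on 12 reads in brain tumor 3 and 17 in brain tumor 1. Counting error is smaller than the differences in all 10 genes, but says nothing of how far brain tumors differ from each other.

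Gfap and Vim kept nearly the same proportion: the ratio of their RPKM was 3.01, 2.95 and 3.07 in brain tumors 1, 2 and 3. The ratio of Gfap to Aqp4 was 10.6, 12.4 and 11.3, and that of Gfap to Nes 279.7, 259 and 254. For Cd44 the same ratio was 61.9, 74.9 and 45.0, and for Serpina3n 5.44, 3.66 and 5.78, so these genes moved less closely with Gfap. Steap4, on few reads, moved least closely, at 1298, 730.0 and 3114, and the ratio to Aspg was 81.3, 61.3 and 57.3. With 3 libraries such proportions are a description of these tumors.

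**Figure D4:**
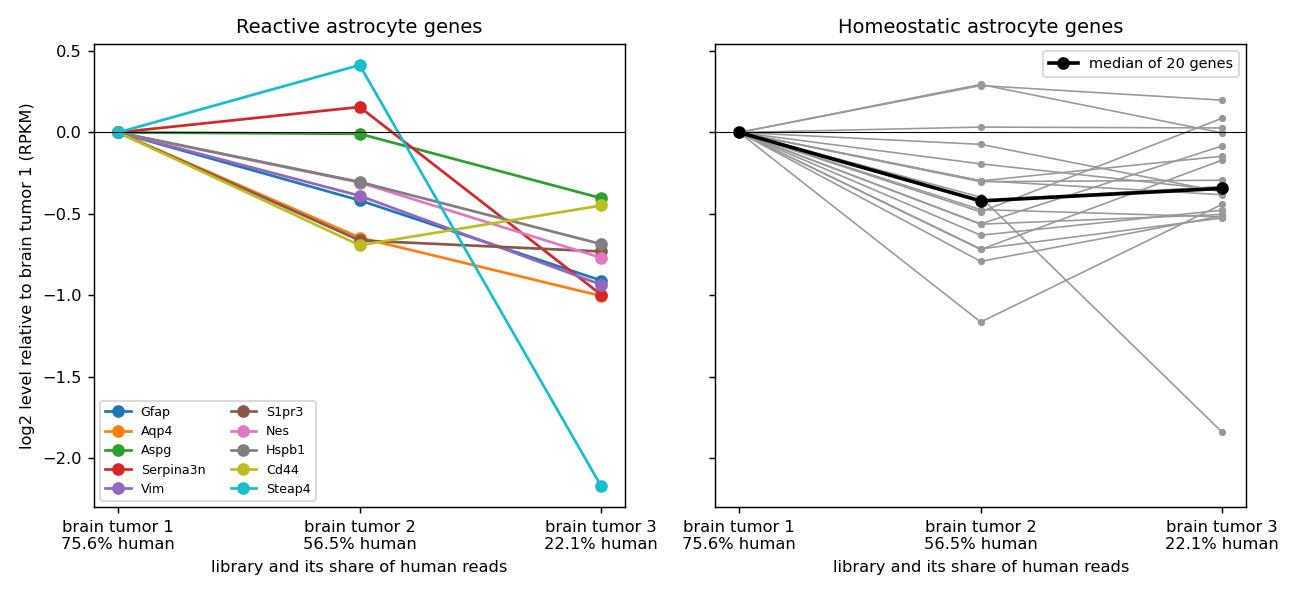
Log2 level in each brain tumor relative to brain tumor 1, with the share of human reads under each library, for the 10 reactive astrocyte genes (left) and 20 homeostatic astrocyte genes with their median in black (right). All 10 reactive genes and 17 of the 20 homeostatic genes lie below 0 in brain tumor 3, where 59.4% of all tested genes were below brain tumor 1. The homeostatic median is lowest in brain tumor 2.

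Homeostatic astrocyte genes, those of resting astrocytes, were also mostly lower in brain tumor 3 than in brain tumor 1, in 17 of 20 genes, but by less, with a median of -0.34 on the log2(RPKM + 1) scale, where 59.4% of all tested genes were lower. Of the 20 genes, 5 were lower at each step and 1, Ppp1r3c, was lower in brain tumor 3 by 1.5-fold or more. The genes above brain tumor 1 were Slc1a3, Slc4a4 and Glul. Slc1a2, the main glutamate transporter, had 7746, 9501 and 7729 RPKM, and the glutamine synthetase gene Glul, picked after its values were seen, 5362, 5485 and 5465 RPKM in brain tumors 1, 2 and 3. The median of the 20 genes was 262, 168 and 210.3 RPKM. Relative to it, Gfap stood at 3.27, 3.49 and 2.68 and Vim at 1.68, 1.93 and 1.06 on the log2 scale, highest in brain tumor 2 and lowest in brain tumor 3. Aqp4 stood at -0.14, -0.14 and -0.83.

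Markers of other host cells also differed between the brain tumors. All 10 microglia and all 10 macrophage and monocyte markers were lower in brain tumor 3 than in brain tumor 1 by 1.5-fold or more, with medians of -2.45 and -1.81 on the log2(RPKM + 1) scale, against -0.79 for the reactive astrocyte genes and -0.14 for all tested genes. Endothelial, pericyte and smooth muscle, and fibroblast markers had medians of -1.03, -1.07 and -1.06, with 9 of 10 lower by that fold in each list. Oligodendrocyte markers, at a median of -0.69 with 8 of 12 lower by that fold and 0 higher, were close to the reactive astrocyte genes. Neural stem and progenitor markers had a median of -0.21, with 4 of 10 lower by that fold and 0 higher. Neuron markers had a median of 0.38, with 5 of 14 higher by that fold and 0 lower. The part of these cells in the order of Vim, Nes, Cd44, S1pr3 and Hspb1 was not tested. Counted against all reads of both species, the direction was the opposite: Gfap had 1634, 2181 and 2779 reads for each 1000000 reads of the library in brain tumors 1, 2 and 3, and host reads were 24.4%, 43.5% and 77.9% of these libraries.

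The wider astrocyte lists placed these genes among their neighbours in the comparison with lung. Of the 20 homeostatic astrocyte genes 17 rose in the brain tumors and 0 fell (median log2 fold change 4.24), as with voom and without lung tumor 1, and 0 were lower at an unadjusted p under 0.05. S100b, a calcium-binding protein of astrocytes, had 284, 164 and 199 RPKM in the brain tumors, was listed at 0 in lung tumor 1 and had 0.623 RPKM in lung tumor 2 (log2 fold change 7.38, limma adjusted p = 0.00112, SE 0.40). Slc1a2, with the brain levels above, had 86.1 and 36.7 RPKM in the lung tumors (log2 fold change 7.18, limma adjusted p = 0.00115). Ntsr2, Aldoc, Kcnj10 and Slc1a3, a neurotensin receptor, a glycolytic aldolase, a potassium channel and a glutamate transporter, had log2 fold changes of 6.76, 6.31, 5.64 and 5.57. Gfap, at 8.11, was above all 20 genes of the list, and Aqp4, at 6.18, was among the upper ones, above the median. The place of Gfap is uncertain, with an SE of 1.08 beside S100b at 7.38. Without lung tumor 2 Gfap was at 6.20, and the list was not ranked in that fit. In lung tumor 1 Gfap stood at 1.27% of its brain tumor mean, above Slc1a2 at 1.03% and Slc1a3 at 1.04%. S100b, Ntsr2, Mlc1 and Slc7a10 were at 0 there, and the other genes of the list stood above Gfap. The first place of Gfap thus rests on lung tumor 2, where it stood at 0.0408% on 11 reads. Fgfr3, Slc7a10 and Ppp1r3c did not pass.

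Other genes described in reactive astrocytes were mostly lower in the brain tumors. Of 15 further genes found in most reactive astrocytes, limma called 0 higher and 9 lower (median -1.90), and 0 were higher at an unadjusted p under 0.05. With voom 0 were higher and 9 lower. The median of the 15 genes was -1.89 without lung tumor 1 and -2.38 without lung tumor 2. Among them Timp1, an inhibitor of matrix proteases, had 43.3, 10.2 and 9.25 RPKM in the brain tumors, against 1302 and 147 RPKM in the lung tumors (log2 fold change -4.68, limma adjusted p = 0.0302, SE 1.08). Thbs1, which encodes thrombospondin, had 7.53, 5.38 and 2.13 RPKM in the brain tumors, against 123 and 145 RPKM in the lung tumors (log2 fold change -4.60, limma adjusted p = 0.00312). Lgals3, a galectin of macrophages, fell as well (log2 fold change -4.04, limma adjusted p = 0.0352). The part of macrophages, fibroblasts and other cells of the lung tumors in the levels of these genes was not tested. Stat3 itself, picked after its values were seen, had 297, 265 and 237 RPKM in the brain tumors, against 253 and 430.0 RPKM in the lung tumors, and did not pass (limma adjusted p = 0.549). In brain tumor 3 against brain tumor 1 the median of the 15 genes was -0.80 on the log2(RPKM + 1) scale, beside -0.79 for the set. Of the 15 genes 10 were lower by 1.5-fold or more and 0 higher, and 9 were lower at each step.

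Of the genes proposed to mark a neurotoxic type of reactive astrocyte (A1), 11 of 12 were tested, and limma called 0 higher and 5 lower (median -2.48). At an unadjusted p under 0.05, 0 were higher and 7 lower, as with voom after adjustment, and without lung tumor 1 the calls were 1 higher, Fkbp5, and 8 lower. They include Serping1, a complement inhibitor, at 48.7, 27.4 and 29.4 RPKM in the brain tumors, against 539 and 423 RPKM in the lung tumors (log2 fold change -3.77, limma adjusted p = 0.00230). The proteasome gene Psmb8 and the granule proteoglycan gene Srgn, both abundant in immune cells, fell with log2 fold changes of -3.52 and -4.18. Of the 12 genes of a protective type (A2), 0 rose and 6 fell by limma (median -1.63), against 0 and 7 at an unadjusted p under 0.05 or with voom, and 1 higher, Cd109, and 7 lower without lung tumor 1. Those that fell included Emp1, S100a10 and Tm4sf1 with log2 fold changes of -3.78, -3.67 and -2.99. In brain tumor 3 against brain tumor 1 the medians on the log2(RPKM + 1) scale were -1.23 for A1 and -0.22 for A2 genes. Of the A1 genes 9 of 11 were lower by 1.5-fold or more and 0 higher. Of the 12 A2 genes 5 were lower and 4 higher by that fold. Many genes of both lists are also used by lung, vessel and immune cells, whose part in these counts was not tested.

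Among ligands and receptors that can start astrocyte reactivity, 17 of 20 were tested, 1 rose and 5 fell (median -0.81), and without lung tumor 1 the calls were 1 higher and 4 lower of 16 tested. Cntfr, the receptor chain for ciliary neurotrophic factor, had 142, 109.7 and 148 RPKM in the brain tumors, against 6.13 and 9.68 RPKM in the lung tumors (log2 fold change 3.93, limma adjusted p = 0.00176, SE 0.33). The cytokine gene Il1b had 8.37, 0.867 and 0.494 RPKM in the brain tumors, against 42.8 and 112 RPKM in the lung tumors (log2 fold change -4.57, limma adjusted p = 0.0199), and its brain levels rested on 16, 3 and 3 reads. Tgfb1, Edn1, Tnfrsf1a and Il1r1, which encode a growth factor, a vessel peptide and receptors for tumor necrosis factor and interleukin-1, fell with log2 fold changes of -2.51, -2.14, -2.08 and -1.85. The interleukin-6 gene Il6, also picked after its values were seen, was listed at 0 in brain tumors 1 and 3 and in lung tumor 1, and Il6, Cntf and Tnf did not pass the filter.

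**Figure D5:**
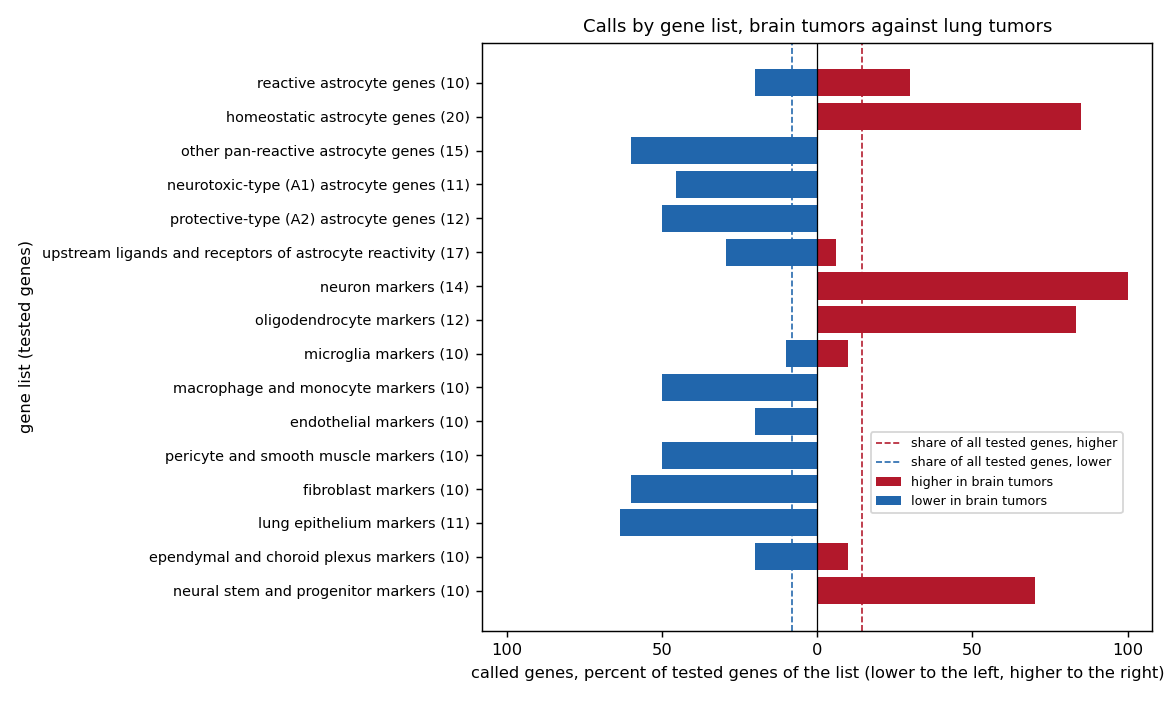
Share of the tested genes of each list that were called higher (red, to the right) or lower (blue, to the left) in the brain tumors against the lung tumors, with dashed lines at the shares over all tested mouse genes (14.3% and 8.12%). Homeostatic astrocyte, neuron and oligodendrocyte genes are mostly higher, the 10 reactive astrocyte genes lie on both sides with 3 higher and 2 lower, and the lists of other reactive genes have 0 higher.

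The genes whose pattern over the 5 libraries was most like that of Gfap were Ptgds, Ttyh1, Snap25, Sncb and Mt3, by the smallest root mean square difference of centred log2(RPKM + 1), at 0.63 to 0.74, among 10928 mouse genes with a mean of at least 5 RPKM in the brain tumors. All 5 were higher in lung tumor 1 than in lung tumor 2, as Gfap was. They were picked for likeness over these same libraries, so this was fixed by the choice. Ptgds and Ttyh1, the closest, were lowest in brain tumor 2, with 2032, 1477 and 1858 RPKM and 1269, 1018 and 1268 RPKM in brain tumors 1, 2 and 3. Sncb had 402, 429 and 522 RPKM there. Mt3, a metallothionein of the brain, had 867, 696 and 526 RPKM in the brain tumors, against 15.7 and 1.37 RPKM in the lung tumors, in the same order across all 5 libraries as Gfap. Snap25, a neuronal synaptic gene, had 677, 703 and 1067 RPKM in the brain tumors, against 11.95 and 0.786 RPKM in the lung tumors, and its order within the brain tumors was the reverse of that of Gfap.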

How the data were processed

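RNA of 5 tumors was sequenced, and the authors deposited RPKM per gene in 1 mouse and 1 human table, on mm10 and hg38 per the submitters' processing notes. Neither the aligner and counter nor the gene lengths and the way a read was given to mouse or human is named in the sources used here. Library numbers in the descriptions tie each column to its sample, with 0 columns left over. The symbol Itgam stands for 2 mouse identifiers, and the one with the higher mean was used.

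Mouse genes that reached an RPKM of 1 in 2 libraries or more were fitted on log2(RPKM + 1) with limma 3.58.1 in R 4.3.3, brain minus lung, with an intensity trend and Benjamini-Hochberg adjustment over all 15431 tested genes. The fit was tested on simulated data with large changes and the same spread beyond counting error in every library. The real spread was unequal: log2 differences had an SD of 1.57 between the lung tumors and 0.55 to 0.71 between brain tumors. That test therefore says nothing of errors at this spread. Fold changes on this scale understate those of low genes. The smallest p of an exact permutation test on these 5 libraries is 0.2, so none is given. Whole reads were recovered from the ratios of a gene's RPKM between libraries, for all 20633 mouse genes above 0 in 2 or more libraries (within 1.2e-10 reads of a whole number). They give depth, read shares and intervals. The denominators of the mouse RPKM, relative to brain tumor 1, stood at 0.998 to 1.003 of the recovered mouse totals.

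All 10 genes of the set are named. From the astrocyte lists the 3 called genes of largest fold are named, and 6 for the homeostatic and the ligand and receptor lists, while lists of other cell types are given mostly as counts and sums. Other picks are said to be so, or are the markers at 0. The members and lists were chosen with earlier results of these data known. No label pairs a brain with a lung tumor, so the replicate number enters an alternative fit alone. Promoter motifs were not analysed here.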

Additional observations from a re-analysis of the deposited data

How the results depend on the processing

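The median log2 fold change of all mouse genes was 0.08, against 0.22 after median-ratio scaling, -0.11 after quantile normalization, -0.16 under voom on recovered reads and 0.43 without lung tumor 2. Of all calls 63.8% were higher in the brain tumors, and over the 15 alternatives 50.4% (voom) to 84.7% (without brain tumor 2), with 54.0% after quantile normalization, 54.8% without lung tumor 1, 70.4% with no filter, 73.6% without brain tumor 1, 77.1% with the replicate block and 80.9% without brain tumor 3. Gfap, Aqp4 and Steap4 were called under all 15 alternatives, Aspg under 11 and Cd44 under 12. The 3457 mouse calls became 2295 with no filter. With the replicate number as a block they became 1484. Among the 10 genes 2 were then higher and 1 lower, against 1144 and 340 of all 15431 tested genes. That fit rests on 2 pairs, and same-numbered libraries did not deviate together (correlations 0.0347 and 0.0502). With voom 4 genes of the set were lower, Nes and S1pr3 joining Steap4 and Cd44. Leaving out 1 library gave 1245 to 8084 mouse calls, with 2 to 4 genes of the set higher and 1 to 5 lower; the extremes were without brain tumor 2 and without lung tumor 2, and the counts were also 1642 without brain tumor 1 and 1370 without brain tumor 3. The cause was not tested. Without brain tumors 1, 2 and 3 in turn, 2 genes of the set were higher in each and 2, 1 and 1 were lower. Of all 15002, 15004 and 15081 genes tested there, 1209, 1054 and 1108 were higher and 433, 191 and 262 lower. Leaving out 1 library, Serpina3n ranged over -0.35 (without lung tumor 2) to 1.58 (without lung tumor 1), and the median of ependymal and choroid plexus markers, -0.82 in all libraries, over -1.83 (without lung tumor 1) to 0.21 (without lung tumor 2). Relative to the reads of both species, brain tumor 3 minus brain tumor 1 turned to 0.77 for Gfap, 0.74 for Vim, 0.91 for Nes, 0.68 for Serpina3n, 1.27 for Aspg, 1.23 for Cd44, 0.94 for S1pr3, 0.99 for Hspb1 and 0.67 for Aqp4 on the log2 scale, by construction, since host reads are a larger share of brain tumor 3. Steap4 did not turn, at -0.50. Depth limits lung tumor 1, where Aspg and Aqp4 had 1 read each.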
